A study of Homo sapiens with 24 samples.

Results

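The comparison set HEK293T cells that had received a small interfering RNA (siRNA) against HEK293T cells that had received a plasmid, 6 h after transfection. It took every array of that time, 12 of the 24 in the series: 6 siRNA arrays and 6 plasmid arrays, each arm made of 3 control and 3 *FMR4* arrays that were given equal weight. *FMR4* is a long noncoding RNA of the *FMR1* locus, the locus silenced in fragile X syndrome, and HEK293T is a fast-growing human embryonic kidney line that carries the SV40 large T antigen. The siRNA arm held CTRL siRNA (Silencer Negative Control #1) and FMR4 siRNA, both at 40 nM with Lipofectamine RNAiMAX, and the plasmid arm held the vector without insert (CTRL pcDNA3.1) or with *FMR4* (FMR4 pcDNA3.1), both at 0.5 µg with Lipofectamine 2000CD. Plating and transfection took place on the same day in all 4 groups, and an array measured RNA pooled from several technical replicates of a culture. The arms therefore differed in nucleic acid, reagent and dose at once, and these cannot be told apart. There was no untransfected group, so a gene was read as higher or lower in the siRNA arm, never as induced or repressed by either treatment. No probe set carried *FMR4* as its symbol, and knockdown or overexpression could not be read from these values.

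A cationic lipid reagent wraps nucleic acid into particles that the cell takes up by endocytosis. An siRNA acts in the cytosol, where Argonaute proteins load its guide strand, whereas a plasmid has to reach the nucleus to be transcribed. The SREBP transcription factors switch on sterol and fatty acid synthesis. They are held back when the membranes of the endoplasmic reticulum are rich in sterols. Both arms received a lipid reagent, and sterol content was not measured. Attachment, stretch and serum factors reach the nucleus through SRF and through YAP with its DNA-binding partner TEAD, and these drive the immediate-early and cytoskeletal genes. Double-stranded RNA and DNA in the wrong compartment are read by sensors that lead to interferon.

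All values are log2 expression levels, deposited by the authors after GC-RMA, and a difference is the mean of the siRNA arm minus the mean of the plasmid arm. Levels were measured for 18395 genes, with array medians between 7.43 and 7.47 at 6 h. A gene was called where limma's adjusted p was under 0.05. HEK293 transcripts were present: 13 of 13 listed markers lay above 6.00, the upper quartile of olfactory receptor and keratin-associated genes, which most cells keep silent, with *VIM* between 12.03 and 12.39 and *INA* between 11.87 and 12.62 over the 12 arrays. The leukocyte gene *PTPRC* lay at 4.37 in the siRNA arm and 4.40 in the plasmid arm. Of the 428 olfactory receptor and keratin-associated genes themselves, 27 were called higher in the siRNA arm (6.31%) and 1 lower (0.234%). Their differences were positive for 298 and negative for 130, with a median of 0.05, beside 0.01 over all genes. These mostly silent genes thus leaned upward in the siRNA arm, and small rises of dim genes are uncertain. The cause was not tested. Of the 13 HEK293 markers 5 were called higher in the siRNA arm (*VIM*, *PAX2*, *INA*, *KRT8* and *EYA1*) and 1 lower (*NEFM*), beside 7.71% and 11.5% of all genes, and a fit to the 12 arrays of 6 h alone called 2 and 1. Fibroblast markers were called higher for 2 of 10 (*ACTA2*, *PDGFRB*), epithelial markers were called higher for 2 and lower for 2 of 10, and kidney tubule and podocyte markers and blood markers each had 1 of 10 in either direction. As these are bulk samples, more cells expressing a gene and more RNA per cell cannot be told apart.

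The siRNA arrays were not alike, and this bears on every result that follows. Across genes, the median standard deviation (SD) among the 3 FMR4 siRNA arrays of 6 h was 0.12, against 0.066 to 0.091 in the other 7 groups of the series, and 248 genes had an SD above 0.5 there, against 3 to 8 elsewhere. FMR4 siRNA replicate 3 had 174 genes at least 1 log2 unit from the plasmid mean, 131 of them higher, while FMR4 siRNA replicate 1 had 1 such gene. The other siRNA arrays lay between them, with 11 genes for FMR4 siRNA replicate 2 and 16, 14 and 53 for CTRL siRNA replicates 1, 2 and 3. Replicates 1 and 3 of FMR4 siRNA thus marked the ends of the arm, and results are also given without both of them, an alternative chosen after seeing the data.

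In the siRNA arm 1418 of 18395 genes were higher (7.71%) and 2116 were lower (11.5%), 3534 in all (19.2%), and 6307 had an unadjusted p under 0.05. The differences were mostly small, since 69 of the genes called higher and 7 of those called lower reached 1.5-fold, and 13 and 0 reached 2-fold. The median difference over all genes was 0.01. The count rested on how the spread was estimated: a fit to the 12 arrays of 6 h alone called 1121 genes, 409 higher and 712 lower. It also rested on single arrays, with 2025 calls without CTRL siRNA replicate 3 and 2322 without CTRL pcDNA3.1 replicate 3. Without FMR4 siRNA replicates 1 and 3 it was 3522. The split into higher and lower moved with the scaling, from 40.1% of calls higher in the deposited values to 54.8% after quantile normalization, which called 2024 genes higher and 1668 lower. All 6 siRNA arrays lay above all 6 plasmid arrays for 262 genes (1.42%) and below them for 549 (2.98%), and among called genes the arrays overlapped for 1183 of those higher and 1612 of those lower.

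The largest rises in the siRNA arm with no overlap between arms were in *ELSPBP1*, *S100P*, *MAMLD1*, *CCN2* and *NUPR1*, ranked by the fitted difference. *ELSPBP1*, an epididymal sperm-binding protein, ran from 5.59 over a median of 8.09 to 8.88 on the siRNA arrays and from 5.17 over 5.24 to 5.47 on the plasmid arrays. All 6 plasmid arrays lay below 6.00, where silent genes lie, so the gene met the level required of this set (above 6.00 in the higher arm) through the siRNA arm, in which FMR4 siRNA replicate 1 was below 6.00 as well and the other 5 arrays were far above it. The means were 7.84 ± 1.22 and 5.28 ± 0.11 (SD, n = 6 each), and against 6.00 the siRNA arm was at least 3.59-fold higher (fitted difference 2.56, standard error, SE, 0.30, adjusted p = 6.9e-05, limma). *S100P*, a calcium-binding protein of the S100 family, ran from 6.78 over 8.06 to 9.42 against 6.26 over 6.54 to 6.69, a difference of 1.60 (SE 0.25, adjusted p = 0.0011). *MAMLD1*, a Mastermind-like coactivator, ran from 7.62 over 9.03 to 10.06 against 7.46 over 7.56 to 7.58, a difference of 1.46 (SE 0.22, adjusted p = 0.00102). In each the plasmid arrays were tightly grouped and the siRNA arrays were spread over more than 2 log2 units.

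*CCN2* encodes connective tissue growth factor, a secreted matricellular protein and a standard target of YAP and TEAD. It ran from 8.92 over 10.12 to 11.03 on the siRNA arrays and from 8.52 over 8.66 to 8.77 on the plasmid arrays, 1.36 higher (SE 0.22, 2.56-fold, adjusted p = 0.0011). *NUPR1*, a small stress-induced nuclear protein, ran from 7.61 over 8.17 to 9.01 against 7.05 over 7.26 to 7.43, 1.01 higher (SE 0.14, 2.01-fold, adjusted p = 0.00058). All 6 siRNA arrays exceeded all plasmid arrays for both genes, as the rule that named them required. *MFAP4*, a microfibril-associated protein, had all 6 plasmid arrays (5.24 to 5.69) and FMR4 siRNA replicate 1 below 6.00, and the siRNA mean of 6.46 was at least 1.37-fold higher. Of the 12 largest rises without overlap, the other 6 ranged from 0.64 to 0.84: *GLIPR1*, *PDGFA* (a platelet-derived growth factor), *CLU* (clusterin, an extracellular chaperone), *AKAP12* (a scaffold of protein kinase A), *SERTAD4* and *ANXA3* (an annexin). FMR4 siRNA replicate 1 was the lowest siRNA array in 12 of these 12 genes and FMR4 siRNA replicate 3 the highest in 11.

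Some rises of the same size were left out of that set because FMR4 siRNA replicate 1 lay within or below the range of the plasmid arrays, and they are named here after their values were seen. *TNFRSF9*, the costimulatory receptor 4-1BB, ran from 7.23 over 9.63 to 11.06 on the siRNA arrays and from 7.02 over 7.23 to 7.37 on the plasmid arrays, 2.35 higher (5.10-fold, adjusted p = 0.000796). *HSPB8*, a small heat shock protein, ran from 6.80 over 9.65 to 10.55 against 6.94 over 7.23 to 7.44, 2.10 higher (adjusted p = 0.00187). In both, 5 of the 6 siRNA arrays were above every plasmid array. *THBS1* (thrombospondin-1), *SLC7A3* (a cationic amino acid transporter), *PTX3* (a long pentraxin), *SH3BGR*, *SUSD4* and *ACTA2* (smooth muscle actin) were higher by 1.54, 1.47, 1.45, 1.18, 1.12 and 1.03, with 3 plasmid arrays of *THBS1* and 1 of *PTX3* below 6.00. Without FMR4 siRNA replicates 1 and 3 the differences were 2.40 for *TNFRSF9*, 2.35 for *HSPB8* and 2.67 for *ELSPBP1*, and the fit to 12 arrays called these 3 genes at adjusted p of 0.0288, 0.0351 and 0.0176.

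**Figure D1:**
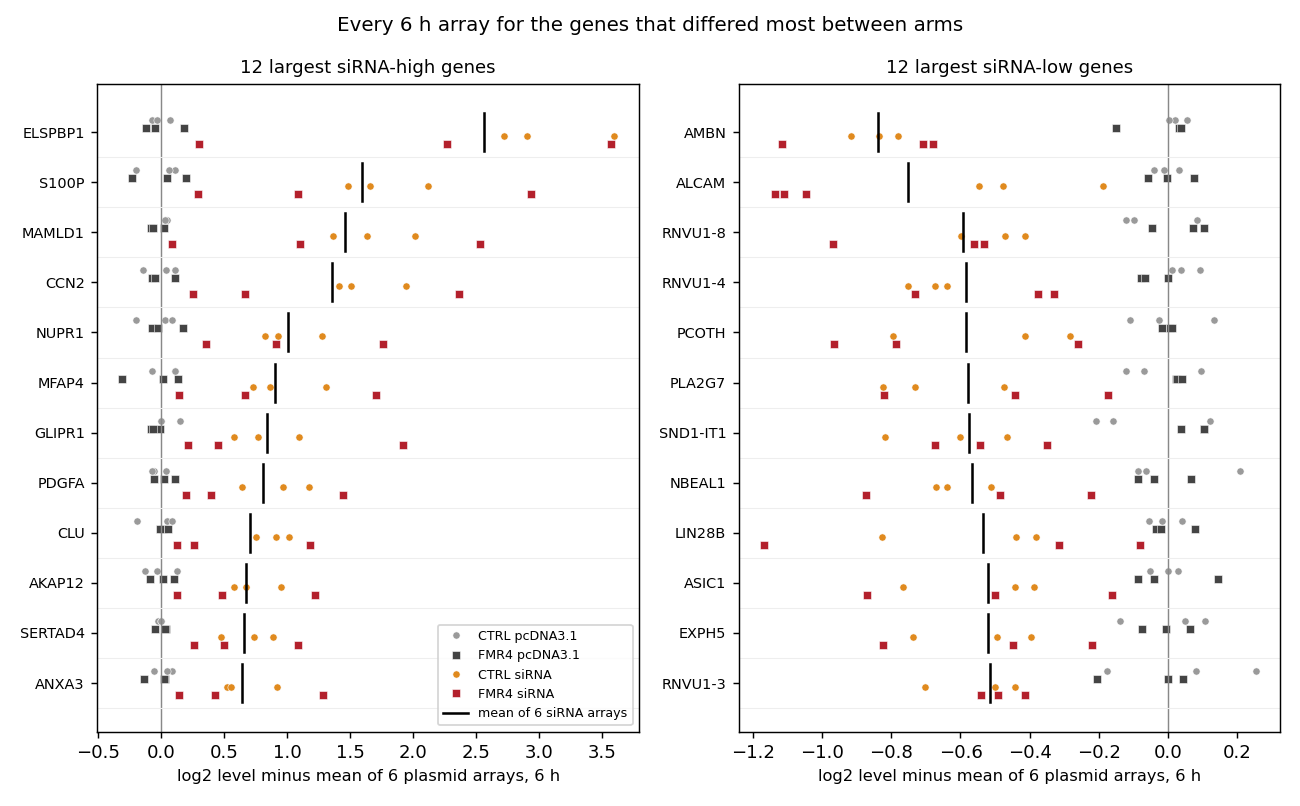
Genes that rose most (12) and fell most (12) in the siRNA arm at 6 h, among called genes whose arms did not overlap. Each point is an array, coloured by group, at its log2 level minus the mean of the 6 plasmid arrays, and the black bar is the mean of the 6 siRNA arrays; the siRNA points of the rises are widely spread, with *ELSPBP1* reaching farthest, while those of the falls lie closer together.

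The falls were smaller and tighter than the rises. *AMBN*, ameloblastin, a protein of tooth enamel matrix, ran from 5.79 over 6.10 to 6.23 on the siRNA arrays and from 6.76 over 6.94 to 6.97 on the plasmid arrays, a difference of −0.84 (SE 0.09, adjusted p = 1.52e-05). Its siRNA mean of 6.07, with 2 arrays below 6.00, lay near the level of silent genes, so the size of this fall is uncertain. *ALCAM*, an immunoglobulin-type adhesion protein, lay between 9.66 and 10.61 on the siRNA arrays and ran from 10.74 over 10.79 to 10.88 on the plasmid arrays, a difference of −0.75 (SE 0.06, adjusted p = 1.77e-06). Neither gene had an overlapping array, which the rule that named them required. In *ALCAM* the 3 FMR4 siRNA arrays (9.75, 9.66 and 9.69) lay below the 3 CTRL siRNA arrays (10.61, 10.25 and 10.32). The remaining 10 of the 12 largest falls lay between −0.51 and −0.59. They were 3 variant U1 small nuclear RNA genes (*RNVU1-8*, *RNVU1-4* and *RNVU1-3*, near-identical copies whose probe sets may share transcripts), *PCOTH*, *PLA2G7* (the hydrolase of platelet-activating factor), *SND1-IT1*, *NBEAL1*, *LIN28B* (which blocks let-7 maturation), *ASIC1* (an acid-sensing ion channel) and *EXPH5*. Of these, *RNVU1-4* had 1 siRNA array below 6.00. All 24 genes named as largest rises and falls were also called in limma's fit to 12 arrays, and without any single array. The weakest in the fit to 12 arrays was *LIN28B* at an adjusted p of 0.0496. The genes were chosen on these same arrays, so this describes how the calls depend on the fit and is not independent support.

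The broadest pattern among the gene groups was in cholesterol synthesis. Of 21 measured genes of the mevalonate and sterol pathway, 16 were lower (76.2%) and 0 higher in the siRNA arm, and 20 had a negative difference. Over all genes 11.5% were lower and 7.71% higher. The median of the list was −0.18, beside 0.01 over all genes. *ACAT2*, which condenses acetyl-CoA at the start of the pathway, ran from 9.82 over 10.23 to 10.37 on the siRNA arrays and from 10.47 over 10.55 to 10.65 on the plasmid arrays (−0.39, SE 0.07, adjusted p = 0.00166). *DHCR7*, the last enzyme of cholesterol synthesis, ran from 10.61 over 11.03 to 11.25 against 11.33 over 11.39 to 11.42 (−0.38, SE 0.07, adjusted p = 0.00239). These arms did not overlap in either gene. *HMGCS1* (−0.24), which makes the substrate of the rate-limiting step, the demethylating enzymes *MSMO1* (−0.28) and *CYP51A1* (−0.20), the regulators *INSIG1* (−0.27) and *SREBF2* (−0.21, adjusted p = 0.00658), which encodes SREBP2, and the sterol carrier *STARD4* (−0.22) were also lower. *FDPS*, *MVK*, *MVD*, *SQLE*, *LSS*, *IDI1*, *EBP* and *TM7SF2* completed the 16, at −0.13 to −0.23. The genes that missed the threshold were *GGPS1* (−0.16), *NSDHL* (−0.13), *SC5D* (−0.10), *PMVK* (−0.02) and *TMEM97* (0.01).

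The list median was negative on each of the 6 siRNA arrays, from −0.08 to −0.26, and between −0.03 and 0.03 on the plasmid arrays. It was −0.18 in the control pair and −0.22 in the *FMR4* pair. The number of calls depended on the arrays and the fit more than the median did. It was 7 without CTRL siRNA replicate 3, 10 without FMR4 siRNA replicate 2, 8 in the fit to 12 arrays and 15 without FMR4 siRNA replicates 1 and 3. At 24 h 2 of the 21 genes were lower and the median was −0.06. Over all genes 5.68% were lower and 6.61% higher at that time, the shares beside which list counts of 24 h are to be read.

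Fatty acid and glycerolipid synthesis went the same way with fewer calls. Of 21 genes 9 were lower (42.9%) and 0 higher, beside 11.5% and 7.71% of all genes, with a median of −0.11. *ELOVL6*, a fatty acid elongase, ran from 8.89 over 9.06 to 9.35 on the siRNA arrays and from 9.36 over 9.39 to 9.46 on the plasmid arrays (−0.32, SE 0.06, adjusted p = 0.00293). *SCD*, the stearoyl-CoA desaturase, ran from 11.80 over 12.14 to 12.28 against 12.32 over 12.38 to 12.42 (−0.29, SE 0.06, adjusted p = 0.00288). The siRNA and plasmid arrays of both genes were apart, if narrowly for *ELOVL6*. The acetyl-CoA carboxylase *ACACA* (−0.25), ATP citrate lyase *ACLY* (−0.23), fatty acid synthase *FASN* (−0.18) and *SREBF1* (−0.20), which encodes SREBP1, were lower too. The fit to 12 arrays called 4 of the 21, as did leaving out CTRL siRNA replicate 3. *ELOVL6* and *SCD* were still lower at 24 h, at −0.23 each with adjusted p of 0.0165 for *ELOVL6* and 0.0102 for *SCD*, and 5 of the list were lower and 1 higher then.

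**Figure D2:**
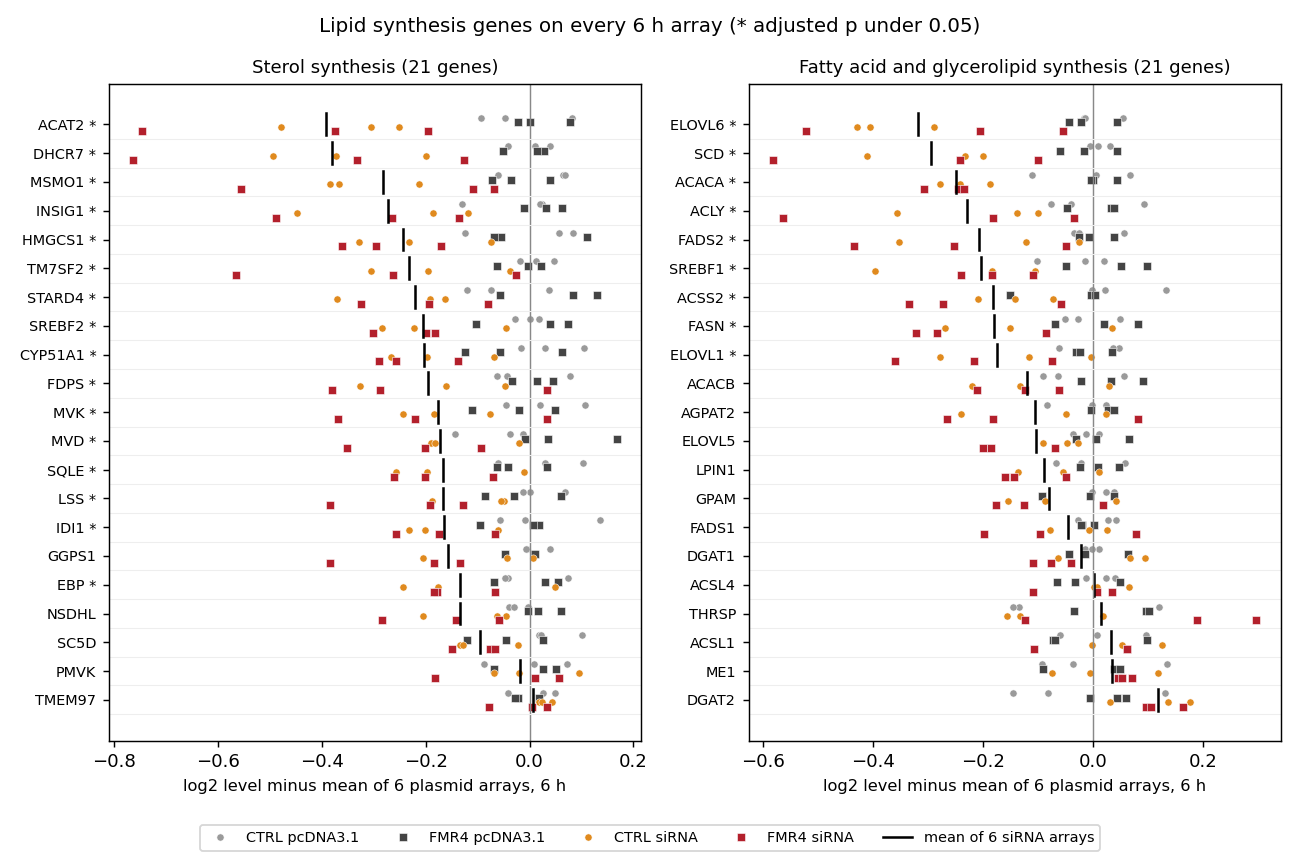
Sterol (21 genes) and fatty acid (21 genes) synthesis at 6 h: the log2 level of each array minus the mean of the 6 plasmid arrays, with points coloured by group, the black bar at the siRNA mean and an asterisk at an adjusted p under 0.05. Nearly all siRNA means of the sterol genes lie left of 0, *ACAT2* and *DHCR7* farthest, at −0.39 and −0.38.

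The promoters of these genes are shown because SREBP acts with NF-Y, which binds CCAAT. The 250 bases before each start that RefSeq lists on GRCh38.p14 were searched for CCAAT on both strands. Of the 21 genes 19 had an entry, and 17 of these held CCAAT. By promoter that was 19 of 26 (73.1%), where 32.0% of all 35116 promoters held it. The stretch TCACNCCAC, a form of the sterol regulatory element, stood in 1 of the 26 sterol promoters and in 0.883% of all. Each line below is 30 bases, 5′ to 3′ on the gene's strand, with the motif in capitals, where ATTGG is CCAAT on the opposite strand.
DHCR7 (chr11:71448424-71448453, minus strand): ggtccgcctccgATTGGcaggcaatcgctg
MSMO1 (chr4:165327623-165327652, plus strand): agctctcgcaggCCAATaacgacaggacgg
HMGCS1 (chr5:43313495-43313524, minus strand): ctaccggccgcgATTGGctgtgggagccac
INSIG1 (chr7:155297696-155297725, plus strand): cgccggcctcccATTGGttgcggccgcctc
SREBF2 (chr22:41832987-41833016, plus strand): cttcgctcgcccATTGGctgagatgagcct
SREBF2, sterol regulatory element (chr22:41832962-41832991, plus strand): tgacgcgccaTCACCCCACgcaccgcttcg
The SREBF2 stretches share 5 bases. A match is a description of the letters, and no binding was measured.

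Immediate-early and SRF target genes leaned the other way. Of 33 measured, 13 were higher (39.4%) and 1 lower (3.03%) in the siRNA arm, with a median of 0.17. Over all genes 7.71% were higher and 11.5% lower. *EGR1*, the zinc finger factor that growth signals switch on within minutes, ran from 9.33 over 10.35 to 11.13 on the siRNA arrays and from 9.05 over 9.35 to 9.71 on the plasmid arrays (0.92, SE 0.18, adjusted p = 0.00291). *SRF* itself ran from 11.18 over 11.50 to 11.94 against 11.07 over 11.12 to 11.16 (0.40, SE 0.08, adjusted p = 0.00359). The siRNA arrays of *SRF* were all above the plasmid arrays, and for *EGR1* FMR4 siRNA replicate 1 was among them. The feedback inhibitors *SPRY4* (0.55), *SPRY2* (0.41) and *DUSP5* (0.49), the mRNA-destabilizing factor *ZFP36* (0.43), *EGR3* (0.40) and the AP-1 subunit *FOSL1* (0.34) were higher as well. *JUN*, another AP-1 subunit, was the gene called lower: it ran from 10.81 over 10.89 to 11.17 against 11.21 over 11.30 to 11.38, with no overlap (−0.38, SE 0.06, adjusted p = 0.000915). *FOS* was 0.31 higher and did not pass the test.

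The rise of this list was not on every siRNA array. Its median was 0.23, 0.16 and 0.28 on the 3 CTRL siRNA arrays but −0.01, 0.03 and 0.39 on the 3 FMR4 siRNA arrays, against −0.07 to 0.06 on the plasmid arrays. The fit to 12 arrays called 5 of the 33 higher and 2 lower. At 24 h 8 were higher and 1 lower, and *JUN* had turned, 0.28 higher at an adjusted p of 0.00216.

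YAP and TEAD targets were higher for 8 of 22 genes (36.4%) and lower for 0, beside 7.71% and 11.5% of all genes. With a median of 0.06 the list's middle hardly moved while its best-known members did. Beside *CCN2*, these were its relative *CCN1*, which ran from 8.35 over 9.39 to 10.13 on the siRNA arrays and from 8.31 over 8.37 to 8.48 on the plasmid arrays (0.95, SE 0.18, adjusted p = 0.00277), and *ANKRD1*, a cardiac ankyrin repeat protein, from 6.93 over 7.76 to 8.78 against 6.53 over 6.93 to 7.35 (0.88, SE 0.23, adjusted p = 0.0121). In each, 5 of 6 siRNA arrays were above all plasmid arrays. *FSTL1* (0.47), *MYOF* (0.39), *AJUBA* (0.31), *GADD45B* (0.26) and *AMOTL2* (0.25) were the others, and the fit to 12 arrays called 4. *ANKRD1* was 1.12 higher at 24 h (adjusted p = 0.00233), where 4 of the list were higher.

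Of the 22 genes 16 had a promoter entry, and GGAATG, the core of the TEAD site, stood on either strand in 7 of their 19 promoters (36.8%) and in 11.9% of all promoters. The CArG box bound by SRF stood in 2 of the 27 immediate-early promoters (7.41%), those of *EGR1* and *SRF*, and in 1.16% of all. The sites are printed for members called higher, and for *THBS1*, *PDGFA* and *AKAP12*, which are in neither list but rose and hold the motif (CATTCC is GGAATG on the opposite strand). Capitals mark only the match nearest the start, and the *CCN2* and *SRF* lines each hold a further match in small letters.
CCN2, TEAD (chr6:131951450-131951479, minus strand): ggaggaatgcgaGGAATGtccctgtttgtg
ANKRD1, TEAD (chr10:90921198-90921227, minus strand): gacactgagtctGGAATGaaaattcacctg
AJUBA, TEAD (chr14:22976884-22976913, minus strand): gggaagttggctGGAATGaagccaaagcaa
AMOTL2, TEAD (chr3:134374499-134374528, minus strand): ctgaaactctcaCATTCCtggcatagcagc
THBS1, TEAD (chr15:39581021-39581050, plus strand): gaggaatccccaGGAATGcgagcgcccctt
EGR1, CArG (chr5:138465386-138465415, plus strand): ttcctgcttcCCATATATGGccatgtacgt
SRF, CArG (chr6:43171239-43171268, plus strand): ccatataaggagcggcctcgCCATAAAAGG
PDGFA, CArG (chr7:520327-520356, minus strand): gactccccctCCTTTTATGGagagaggaag
AKAP12, CArG (chr6:151239876-151239905, plus strand): cgtgaggtgcCCAAATATGGtcggactcag

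**Figure D3:**
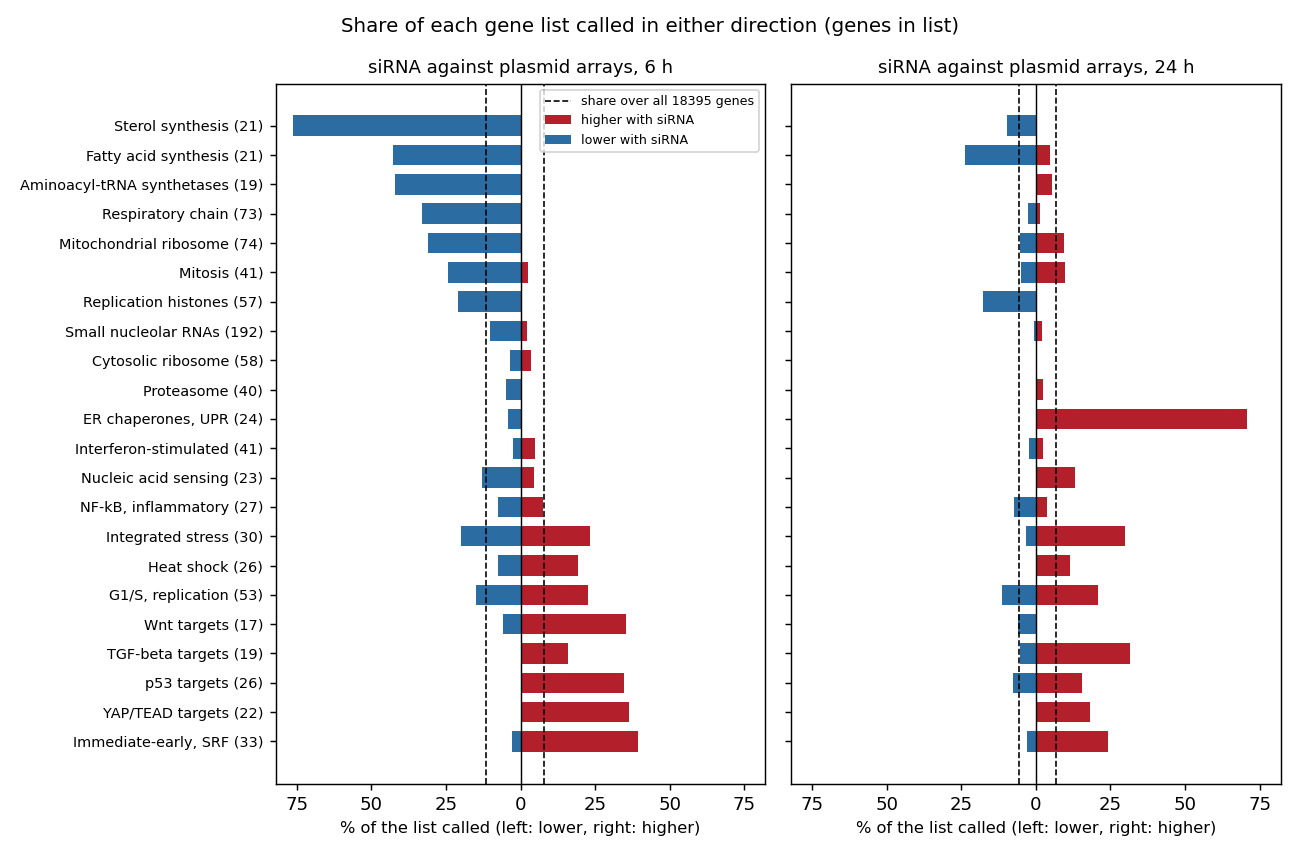
Share of each gene list called lower (left, blue) and higher (right, red) in the siRNA arm at 6 h and at 24 h, in percent of the list's measured genes. Dashed lines mark the share over all 18395 genes, 11.5% lower and 7.71% higher at 6 h and 5.68% and 6.61% at 24 h. Sterol synthesis has the longest blue bar at 6 h among the lists named in the text, 16 of 21 genes, and endoplasmic reticulum chaperones have 17 of 24 higher at 24 h.

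Targets of p53 were higher for 9 of 26 genes (34.6%) and lower for 0 (median 0.16), beside 7.71% and 11.5% of all genes. HEK293T carries the large T antigen, which binds p53. *CDKN1A*, the cell cycle inhibitor p21, ran from 8.80 over 9.46 to 9.90 on the siRNA arrays and from 8.65 over 8.87 to 9.02 on the plasmid arrays (0.54, SE 0.12, adjusted p = 0.00491). *EDA2R* (0.50), the death receptor *TNFRSF10B* (0.39), *PLK2* (0.34), the polymerase *POLH* (0.30) and *PHLDA3* (0.29) were higher too, while *MDM2* (−0.05) and *BAX* (−0.06) did not pass the test. FMR4 siRNA replicates 1, 2 and 3 had list medians of −0.03, 0.00 and 0.38. The fit to 12 arrays called 1 of the 26, *PHLDA3*, with *CDKN1A* at an adjusted p of 0.0504, and 3 were called without CTRL siRNA replicate 3. At 24 h 4 were higher and 2 lower.

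Stress genes did not move as a block. Over all genes 7.71% were higher and 11.5% lower at 6 h, and 6.61% and 5.68% at 24 h. In the integrated stress list, 7 of 30 were higher and 6 lower. *NUPR1*, the phosphatase subunit *PPP1R15A* (0.45), the stress cytokine *GDF15* (0.35) and the hormone *FGF21* (0.24) were higher. The transcription factor *ATF3*, between 7.72 and 8.03 on the siRNA arrays and between 8.12 and 8.43 on the plasmid arrays, was lower (−0.40, SE 0.12, adjusted p = 0.0214), as were the cystine transporter *SLC7A11* (−0.36) and *PYCR1*, *SHMT2*, *ALDH18A1* and *EIF2AK4*. The 6 lower calls were all lost without CTRL siRNA replicate 3, and 1 was left without FMR4 siRNA replicate 3 and 2 without CTRL siRNA replicate 1. *ATF3* was 0.92 higher at 24 h (adjusted p = 2.12e-05). Heat shock genes were higher for 5 of 26 and lower for 2, and beside *HSPB8* the largest was *HSPB1* at 0.35, which fell to 0.22 without FMR4 siRNA replicate 3. Of the 26 heat shock genes 1 was called in the fit to 12 arrays, and likewise 1 without CTRL siRNA replicate 3. Endoplasmic reticulum chaperones were lower for 1 of 24 (*PDIA4*, −0.28, adjusted p = 0.0184, lost without CTRL siRNA replicate 3) and higher for 17 of 24 at 24 h, with a median of 0.21 at that time.

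Genes that answer interferon and genes that sense nucleic acids were called at 3 of 41 and 4 of 23, beside 19.2% of all genes. Of the 41 interferon-stimulated genes and interferons, 2 were higher, *SAMD9* (0.40) and the interferon regulatory factor *IRF1* (0.21), and 1 was lower, *HERC6* (−0.19), with a median of 0.04. Of the 41 genes 24 had a mean above 6.00 over the series, and when only the 25 above 6.00 in at least 1 group were kept, 3 were higher and 1 lower. Among the 23 sensors and adaptors 1 was higher (*TLR9*, 0.19) and 3 were lower (*RIGI*, −0.22, *MAVS*, −0.16, and *TBK1*, −0.14). *HERC6* and these 4 genes lost their call in the fit to 12 arrays, where 5 of the 23 had an unadjusted p under 0.05. NF-κB targets were higher for 2 of 27 (*NFKBIA* and *TNF*, 0.20 each) and lower for 2 (*CFLAR*, −0.26, and *SOD2*, −0.13). That was 7.41% each way, not above the shares over all genes, 7.71% higher and 11.5% lower. In the small RNA silencing machinery 1 of 17 was higher (*DICER1*) and 4 were lower: the nuclear exporter *XPO5* (−0.19), the Argonaute partner *TNRC6A* (−0.18), *DROSHA* (−0.15) and *AGO4* (−0.20). These were 5.88% and 23.5% of a short list, beside 7.71% and 11.5% of all genes.

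Mitochondrial ribosomal proteins, respiratory chain subunits and aminoacyl-tRNA synthetases had calls in the lower direction only, where 11.5% of all genes were lower and 7.71% higher. Of 74 mitochondrial ribosomal proteins 23 were lower and 0 higher (median −0.10), of 73 nuclear-encoded respiratory chain subunits 24 and 0 (median −0.09), and of 19 cytosolic aminoacyl-tRNA synthetases 8 and 0 (median −0.10). *UQCR11*, a subunit of complex III, ran from 8.91 over 9.13 to 9.47 on the siRNA arrays and from 9.47 over 9.53 to 9.62 on the plasmid arrays (−0.35, SE 0.07, adjusted p = 0.00369). *NDUFA5*, of complex I, ran from 8.60 over 8.81 to 8.94 below plasmid arrays with a median of 9.13 (−0.32, SE 0.06, adjusted p = 0.00311), and it was −0.67 at 24 h. The arms did not overlap for *NDUFA5* and met at the edge for *UQCR11*. The fit to 12 arrays called 3, 8 and 2 of these lists lower, and without CTRL siRNA replicate 3 it was 10, 14 and 4. In contrast, cytosolic ribosomal proteins had 2 of 58 in either direction and the proteasome had 2 of 40 lower; limma's fit to 12 arrays called 0 of either list, with 6 and 5 at an unadjusted p under 0.05.

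Cell cycle genes split, where 7.71% of all genes were higher and 11.5% lower. Among 53 G1/S and replication genes 12 were higher and 8 lower, led by the transcription factor *E2F2*, which ran from 8.31 over 8.62 to 9.28 on the siRNA arrays and from 8.01 over 8.14 to 8.20 on the plasmid arrays with no overlap (0.56, SE 0.10, adjusted p = 0.00239), and by the cyclins *CCND2* (0.39) and *CCNE2* (0.35). In the fit to 12 arrays 5 of the 53 were called, each of them higher, and without CTRL siRNA replicate 3 the lower calls dropped to 3. Of 41 mitotic genes 1 was higher (*NUSAP1*, 0.40) and 10 were lower, with a median of −0.10. They included the kinesins *KIF14* (−0.38) and *KIF20B* (−0.31), *HMMR* (−0.35), the kinase *PLK1* (−0.26) and *ASPM* (−0.24), and every member called lower or higher overlapped between the arms on at least 1 array. All 11 calls were lost in limma's fit to 12 arrays, where 14 of the 41 had an unadjusted p under 0.05 and *KIF14*, *PLK1*, *ASPM* and *NUSAP1* had adjusted p of 0.0558, 0.0714, 0.0552 and 0.0568. Replication-dependent histones were lower for 12 of 57 and higher for 0 (median −0.10), and 10 were lower at 24 h; the fit to 12 arrays called 4 lower at 6 h. CCAAT, known from mitotic promoters too, stood in 35 of the 45 promoters found for the mitotic list (77.8%), as in that of *PLK1* (chr16:23678804-23678833, plus strand).
PLK1: aaatccccgcggCCAATcagtggcgcgcag

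Several smaller groups had members on both sides, where 7.71% of all genes were higher and 11.5% lower. Wnt targets were higher for 6 of 17 (*LEF1* 0.27, *FZD7* 0.25 and *CCND1* 0.20 among them) and lower for 1, the stem cell receptor *LGR5* (−0.44, adjusted p = 0.00991). In apoptosis 7 of 33 were higher, among them the survival genes *BCL2* (0.55) and *BCL2L1* (0.33), and 2 were lower. Lysosome and autophagy genes were lower for 8 of 40 (*GLA*, −0.32, and *CTSD*, −0.32) and higher for 4 (*SQSTM1*, 0.30), against 13 higher and 1 lower at 24 h. Of 41 endocytosis genes 3 were higher, among them the caveolin *CAV1* (0.37), and 3 lower, against 14 and 0 at 24 h. At 6 h that was 7.32% each way, not above the shares over all genes. The shares over all genes at 24 h were 6.61% higher and 5.68% lower. Small nucleolar RNAs were lower for 20 of 192 (10.4%), near the share over all genes, and higher for 4 (2.08%). Scaling changed that split, to 14 and 8 after quantile normalization. Quantile normalization also changed the split of apoptosis genes, to 13 higher and 2 lower, of endocytosis genes, to 12 and 1, and of lysosome and autophagy genes, to 6 and 7. Of the lists given earlier it called 17 G1/S and replication genes higher and 6 lower, 7 and 3 integrated stress genes, 2 and 7 mitotic genes and 2 and 16 mitochondrial ribosomal proteins. Among transcripts known in HEK293 cells, the keratin *KRT8* was higher (0.63) and the neurofilament *NEFM* lower (−0.43), and the epithelial cadherin *CDH1* lay between 6.82 and 7.58 on the siRNA arrays and between 7.68 and 7.82 on the plasmid arrays (−0.46, adjusted p = 0.00331). These counts shrank in the fit to 12 arrays, to 2 for the Wnt list, 5 for apoptosis, 4 for lysosome and autophagy, 1 for endocytosis and 9 for small nucleolar RNAs. There *LGR5*, *FZD7* and *KRT8*, and of the genes above *NFKBIA*, *SOD2* and *DROSHA*, had adjusted p of 0.0512 to 0.0664.

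Of transcripts that had also been assayed by quantitative PCR, *MALAT1* (0.40, adjusted p = 0.00876) and *YOD1* (0.22, adjusted p = 0.00407) differed between the arms. *MALAT1* had an adjusted p of 0.0577 in the fit to 12 arrays, and it also lost its call when its probe sets were averaged. *FMR1* (−0.03), *GAPDH* (−0.04), *MBD4* (0.10, adjusted p = 0.058), *GNG12* (0.09) and *RRM2* (0.04) did not pass the test. Among genes the study had chosen on these arrays as following *FMR4*, 50 of 135 measured were higher (37%) and 1 lower (0.741%) in the siRNA arm. Among those it chose as opposing *FMR4*, 14 of 76 were higher (18.4%) and 0 lower. The shares over all genes were 7.71% and 11.5%. A gene following *FMR4* would be lower with FMR4 siRNA than with FMR4 pcDNA3.1, but the first list's median in that pair was 0.20 at 6 h. Between the arms at 24 h the first list had 0 higher and 9 lower and the second 70 and 0, beside 6.61% and 5.68% of all genes. As both lists were picked from the same arrays, these counts are not independent evidence of a direction.

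**Figure D4:**
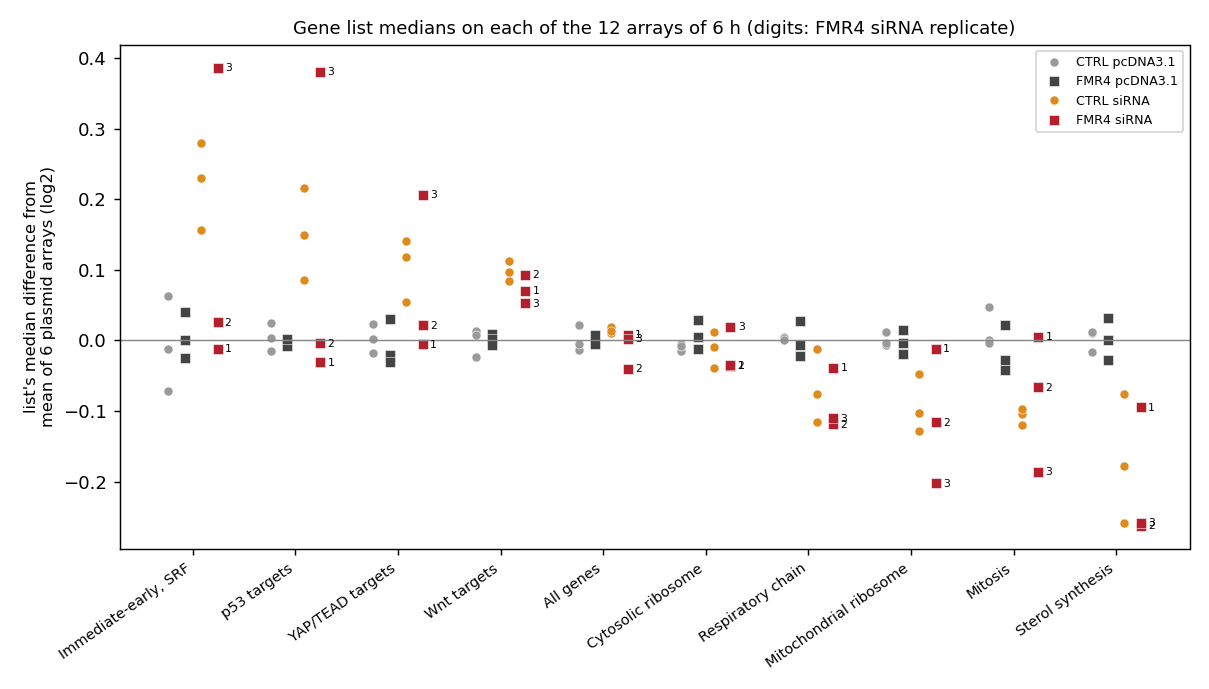
Median, over the genes of each of 9 lists and over all genes, of the log2 level minus the mean of the 6 plasmid arrays, for each array of 6 h; points are arrays coloured by group and digits give the FMR4 siRNA replicate. The sterol medians of all siRNA arrays lie at −0.08 or below, whereas in the immediate-early and p53 lists FMR4 siRNA replicates 1 and 2 lie near 0 and replicate 3 is highest, at 0.39 and 0.38.

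Each arm difference can be read within the control pair and within the *FMR4* pair, which share no array. The 2 pairs need not be independent, since replicate 3 of CTRL siRNA and of FMR4 siRNA deviated together from their groups (r = 0.47). CTRL siRNA against CTRL pcDNA3.1 gave 313 genes higher (1.7%) and 295 lower (1.6%), 608 in all (3.31%). FMR4 siRNA against FMR4 pcDNA3.1 gave 24 higher (0.13%) and 73 lower (0.397%), 97 in all (0.527%), in the pair that holds the 2 arrays set apart above, and 519 without them, where FMR4 siRNA replicate 2 alone is left and is assumed to vary like the other groups. These counts were unstable: the fit to 12 arrays called 8 genes in the control pair and 4 in the *FMR4* pair. Without single arrays the control pair gave 9 (CTRL pcDNA3.1 replicate 3), 10 (CTRL siRNA replicate 3), 22 (CTRL pcDNA3.1 replicate 1), 66 (CTRL siRNA replicate 1), 281 (CTRL pcDNA3.1 replicate 2) and 492 (CTRL siRNA replicate 2). The *FMR4* pair gave 5, 7 and 15 without FMR4 pcDNA3.1 replicates 3, 1 and 2, 26 and 28 without FMR4 siRNA replicates 2 and 3, and 2879 without FMR4 siRNA replicate 1. Called in both pairs were 39 genes, 11 higher and 28 lower in both, which is 6.41% of the control pair's calls and 40.2% of those of the *FMR4* pair. The sign was shared by 97.4% of the genes called in the control pair and by 95.9% of those called in the *FMR4* pair, beside 73.7% of all genes. Across 18395 genes, which are not independent of each other, Pearson's r was 0.746 and Spearman's rho 0.666. The fitted difference of *ELSPBP1*, whose plasmid arrays lay below 6.00, was 3.08 in the control pair (adjusted p = 0.00137) and 2.04 in the *FMR4* pair (adjusted p = 0.0358). *NUPR1* was higher by 1.03 and 0.98 (adjusted p = 0.017 and 0.0357), and *AMBN* was −0.87 and −0.81 (adjusted p = 0.00141 and 0.00514). *ELSPBP1*, *NUPR1* and *AMBN* were chosen on the arrays of both pairs together, so their calls within each pair are not independent support.

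Whether a gene's arm difference depended on the pair was tested directly, as the difference of the differences. In limma 0 of 18395 genes passed (0%), with 582 at an unadjusted p under 0.05, while trend and robust moderation gave 3, array weights 19 and leaving out FMR4 siRNA replicate 3 184. The lowest adjusted p was 0.0974, shared by *ALCAM*, *ZDHHC20*, *SAR1B* and *SPOPL*. *ALCAM* was −0.40 in the control pair and −1.10 in the *FMR4* pair. *ZDHHC20*, a palmitoyltransferase, was −0.02 and −0.74, and *SAR1B*, a GTPase of vesicle coats, was −0.58 and 0.02. *SPOPL* was −0.41 and 0.21, and −0.10 in the joined comparison, where it was not called (adjusted p = 0.202).

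**Figure D5:**
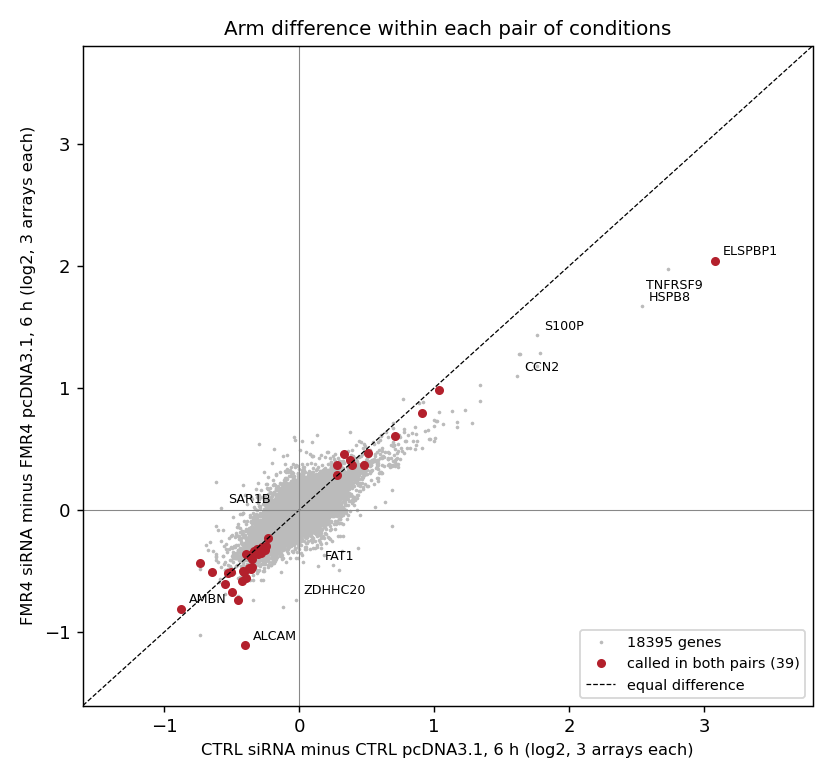
The siRNA minus plasmid difference (log2) in the control pair (horizontal) and in the *FMR4* pair (vertical) at 6 h for 18395 genes, grey points; the 39 genes called in both pairs are red and the dashed line marks equal differences. *ELSPBP1* lies far to the upper right at 3.08 and 2.04, *AMBN* near the line at −0.87 and −0.81, and *ALCAM* and *ZDHHC20* below it.

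The same comparison at 24 h, on the 12 other arrays, gave 1215 genes higher (6.61%) and 1045 lower (5.68%), 2260 in all (12.3%). Of the genes called at 6 h, 434 were called in the same direction at 24 h, 153 higher and 281 lower, which is 12.3% of the calls of 6 h and 19.2% of those of 24 h, and 120 were called in the opposite direction. The arm difference itself changed between the times for 2031 genes (11%), with 1218 moving up (6.62%) and 813 down (4.42%). Among the 24 largest rises and falls 18 were among these. The 24 were chosen for large differences at 6 h, and the same values enter this test. That choice by itself favours a smaller difference at 24 h, so the 18 are not set against the share over all genes. At 24 h *S100P* was −0.02 and *CCN2* 0.29, neither called, and *ELSPBP1* lay below 6.00 on all 12 arrays. *ALCAM*, by contrast, was lower at both times, with −1.24 at 24 h (adjusted p = 7.09e-11), and *PLA2G7* stayed lower at −0.38 (adjusted p = 0.00343). *CYP1A1*, a monooxygenase controlled by the aryl hydrocarbon receptor, turned over: it ran from 6.62 over 6.73 to 7.21 on the siRNA arrays of 6 h and from 6.18 over 6.30 to 6.48 on the plasmid arrays, 0.50 higher with no overlap, and was −0.49 at 24 h (adjusted p = 0.000693).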

How the data were processed

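RNA of HEK293T cells was measured on 24 Affymetrix Human Gene ST arrays, 3 for each of 8 conditions (the labels and the study's methods name different versions of the array). The values deposited by the authors are log2 levels after background subtraction and GC-RMA normalization, in 33297 probe sets without missing values. Of these, 21214 had a gene in the probe annotation and 19460 had 1 symbol, and a gene was read from its probe set of highest mean. One mean per condition was fitted to all 24 arrays with limma 3.58.1 in R 4.3.3 (16 residual degrees of freedom), and p-values were adjusted by Benjamini-Hochberg over the 21214 probe sets. The spread is that between the arrays of a condition. The rule named the 12 largest rises and falls among called genes above a level of 6.00 whose arms did not overlap. It also named up to 4 called genes of each list. For the change between the times it named the 5 genes of lowest p in limma each way, which were not chosen by size. Other list members were named with their values known, and the comparison and its gene lists were chosen with earlier results of these data known. On simulated arrays the fit recovered 53.7% of changes of 0.25, 95.5% of 0.5 and 100% of 1 log2 unit. The simulated noise was independent and had the same spread in every group for a given gene. It thus lacked the wider spread of the FMR4 siRNA arrays of 6 h, and these rates cannot be carried over to the real arrays. The number of arrays limits the precision. Alternatives varied the arrays, fit, scaling, probe sets, threshold and replicate block.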

Additional observations from a re-analysis of the deposited data

Results flagged for a closer look

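In 48 groups of 6 arrays, the arms of the 24 largest rises and falls, 4 arrays stood farther from their neighbours than Dixon's critical value for 6 values, where chance gives about 1 in 20 groups. They were CTRL pcDNA3.1 replicate 1 for *GLIPR1* (6.32), CTRL pcDNA3.1 replicate 3 for *CLU* (8.13), FMR4 pcDNA3.1 replicate 2 for *AMBN* (6.76) and FMR4 siRNA replicate 2 for *RNVU1-8* (6.46).

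The arm difference changed from 6 h to 24 h by limma's test of the difference for 2031 genes, and the change (24 h minus 6 h, log2) is given here for the 28 named ones. Among the largest rises of 6 h it was −2.45 for *ELSPBP1*, −1.61 for *S100P*, −1.33 for *MAMLD1*, −1.07 for *CCN2*, −0.96 for *NUPR1*, −0.89 for *MFAP4*, −0.90 for *GLIPR1*, −0.76 for *PDGFA*, −0.75 for *AKAP12* and −0.47 for *SERTAD4*. Each of these 10 differences was smaller at 24 h, when *ELSPBP1* and *MFAP4* lay below 6.00 on all 12 arrays. As the genes were chosen for large differences at 6 h, smaller ones at 24 h are partly built into the choice. Among the largest falls it was 0.71 for *AMBN*, 0.62 for *RNVU1-8*, 0.70 for *RNVU1-4*, 0.88 for *PCOTH*, 0.56 for *SND1-IT1*, 0.41 for *EXPH5* and 0.49 for *RNVU1-3*, and −0.49 for *ALCAM*, whose fall grew.

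Of the genes named for the change itself, the arm difference moved up by 0.65 for *ANKRD52*, 0.86 for the orphan receptor *NR6A1*, 0.95 for the vesicle coat subunit *SEC24D*, 0.60 for *TMCC1* and 0.60 for the autophagy subunit *ATG14*. It moved by −0.82 for the basement membrane protein *NID1*, −0.99 for *CYP1A1*, −0.61 for *RIMS2*, −0.50 for *RGS7* and −0.56 for the DNA repair protein *DDB2*.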

How the results depend on the processing

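The counts of called genes were, in order, 3534 for the arms at 6 h, 608 for the control pair, 97 for the *FMR4* pair, 0 for the difference of pairs, 2260 at 24 h and 2031 for the change between times. The fit to 12 arrays gave 1121, 8 and 4 for the arms and the pairs. Trend and robust moderation gave 3 for the difference of pairs. Array weights gave 3262, 1749 and 19 for the pairs and their difference, 3743 at 24 h and 4815 for the change between times. At an adjusted p under 0.01 the counts were 1215, 12, 10, 1177 and 511, without the difference of pairs. Without FMR4 siRNA replicates 1 and 3, chosen after seeing the data, they were 519 for the *FMR4* pair, 11 for the difference and 3164 for the change, with FMR4 siRNA replicate 2 alone left of its group and assumed to vary like the others. Leaving out 1 array at a time gave 2025 to 5055, 9 to 492, 5 to 2879, 0 to 184, 1662 to 2152 and 1238 to 3563, the lowest arm count without CTRL siRNA replicate 3 and the highest without FMR4 siRNA replicate 1. Quantile normalization moved the higher share of calls from 51.5% to 66.3% in the control pair, from 24.7% to 42.4% in the *FMR4* pair and from 60.0% to 48.6% for the change, and median centring from 53.8% to 74.6% at 24 h and to 81.0% for the change. With the replicate number as a block the counts were 3422, 605, 84, 0, 2118 and 1989. The labels do not say that arrays with the same number belong together, and 5 of 18 correlations of their deviations were over 0.1 (−0.16 to 0.47). Within the siRNA arm they were 0.17, −0.063 and 0.47 for replicates 1, 2 and 3, and within the plasmid arm 0.075, 0.15 and 0.12. Across the arms they ran from −0.16 to 0.18. Some same-number arrays of an arm thus deviated together, most of all the siRNA arrays of replicate 3. Groups of an arm may therefore not be fully independent. Of the single genes under all settings 4106 values were counted as unchanged, 340 lost the call, 12 gained it and, among called genes, 0 reversed. A change of sign in a gene that was not called was counted as unchanged, as for *NR6A1*, which ran from −0.09 to 0.04 without single arrays. The cause of these changes was not tested. Levels near 6.00 cannot be told from those of silent genes, and small differences of single genes depend on which arrays enter.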
